A study of Mus musculus with 8 samples.

Results

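The 3 PIWI genes measured here, Piwil1, Piwil2 and Piwil4, and 7 genes for cofactors of PIWI-interacting RNAs (piRNAs), Mael, Mov10l1, Asz1, Gtsf1, Pld6, Henmt1 and Fkbp6, were followed in sorted mouse germ cells with and without the histone demethylase KDM1A. The 10 genes were chosen by name, from their known roles, out of 17589 genes in the deposited table. The choice was made with earlier results of these data known. All 10 were found and all 10 passed the filter, an average of 1 FPKM or more (sequenced fragments per kilobase of a transcript, relative to the size of the library). The 4 control and the 4 knockout libraries came from C57BL/6 mice of the GOF/deltaPE-Oct4/GFP reporter line at 6 days after birth, and both groups carried the reporter. The knockout is named KDM1A KO in the sample labels and a conditional allele of Kdm1a in the protocol. Neither the driver of its recombination nor the alleles of the control mice are named in the labels. Cells were sorted for GFP from digested testes, and nothing in the labels ties each library to its own animal, so p-values here measure only library-to-library spread, which may be technical.

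PIWI proteins are Argonaute proteins of the germ line that bind piRNAs and silence transposons with them, by cutting transposon RNA in the cytoplasm and by guiding DNA methylation in the nucleus. In mouse, PIWIL2 (MILI) is present from fetal germ cells through meiosis, PIWIL4 (MIWI2) is the nuclear protein of fetal and newborn prospermatogonia, and PIWIL1 (MIWI) is known for pachytene spermatocytes and round spermatids. The cofactors make, load, trim or protect piRNAs, many of them on the outer surface of mitochondria or in germ granules.

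Promoter sequences are shown for the 4 genes whose summed transcripts were called as rising in the knockout. Sequences came from RefSeq on GRCm38.p6, which held 12 promoter entries for 9 of the 10 genes (all but Piwil2), each running from 250 bases before to 50 bases after an annotated start. They are written 5′ to 3′ on the gene's strand, with CG dinucleotides, the sites of DNA methylation, in capitals. The windows are chr5:128735996-128736295 on the plus strand for Piwil1, and on the minus strand chr9:14740623-14740922 for Piwil4, chr15:103430378-103430677 for Gtsf1 and chr6:18109012-18109311 for Asz1. The Piwil1 window surrounds a RefSeq start inside the gene span given by GENCODE M21 (128702524 to 128755474), away from the 5′ end of that span.
Piwil1: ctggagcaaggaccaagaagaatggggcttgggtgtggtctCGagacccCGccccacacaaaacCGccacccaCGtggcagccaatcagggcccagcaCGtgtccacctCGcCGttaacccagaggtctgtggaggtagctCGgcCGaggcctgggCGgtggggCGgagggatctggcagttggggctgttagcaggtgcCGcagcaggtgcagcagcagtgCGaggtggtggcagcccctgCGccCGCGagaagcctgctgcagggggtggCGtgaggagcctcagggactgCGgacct
Piwil4: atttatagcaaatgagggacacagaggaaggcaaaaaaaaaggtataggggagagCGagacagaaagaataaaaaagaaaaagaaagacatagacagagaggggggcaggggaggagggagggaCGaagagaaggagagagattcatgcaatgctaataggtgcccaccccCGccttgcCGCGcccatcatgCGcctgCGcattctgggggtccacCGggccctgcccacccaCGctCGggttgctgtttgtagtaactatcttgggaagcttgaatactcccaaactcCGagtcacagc
Gtsf1: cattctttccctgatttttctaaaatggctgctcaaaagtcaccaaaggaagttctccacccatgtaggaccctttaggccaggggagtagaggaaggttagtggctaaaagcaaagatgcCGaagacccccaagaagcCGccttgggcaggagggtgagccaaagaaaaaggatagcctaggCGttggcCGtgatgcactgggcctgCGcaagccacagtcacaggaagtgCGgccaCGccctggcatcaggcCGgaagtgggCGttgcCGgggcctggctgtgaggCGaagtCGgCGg
Asz1: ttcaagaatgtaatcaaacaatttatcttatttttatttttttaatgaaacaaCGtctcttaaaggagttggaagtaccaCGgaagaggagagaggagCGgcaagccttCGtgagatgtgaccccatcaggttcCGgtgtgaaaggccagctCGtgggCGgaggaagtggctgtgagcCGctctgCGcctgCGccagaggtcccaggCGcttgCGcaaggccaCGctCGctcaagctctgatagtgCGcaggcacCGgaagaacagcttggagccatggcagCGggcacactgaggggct
These windows held 18 CG dinucleotides in Piwil1, 11 in Piwil4, 13 in Gtsf1 and 17 in Asz1, against a median of 7 and an upper quartile of 20 over 32851 promoter entries of the same length. A second Piwil4 entry, chr9:14718338-14718637 on the minus strand, held 0 and is not printed. The E-box CACGTG, which reads the same on both strands, was found at positions -179 and -154 of the Piwil1 window, counted from the start site, and was not found in the windows of Piwil4, Gtsf1 or Asz1. It was also present in windows of genes that were not called: once each in Mael and Mov10l1, in 1 of the 2 entries of Pld6, and 2 times in each of the 2 overlapping entries of Fkbp6. Of all entries, 7.15% held at least 1 such E-box. The E2F-type motif GCGGGAA, searched on both strands, was in none of the 12 entries and in 4.6% of all. A match of letters is a description of the sequence and not evidence of binding.

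Library depth, estimated from the spacing of low values as the best fit of a scan, came to 45500000 to 67000000 fragments. For Piwil1, the lowest of the 10 genes, this gave about 942 to 1707 fragments per library. Kdm1a, the targeted gene, was at 48.1 to 92.0 FPKM in control libraries (61.9 ± 20.2, SD, n = 4 in each group here and below) and at 14.1 to 17.3 in knockout libraries (15.1 ± 1.49). Knockout replicate 2 stood apart, with 1642 transcript entries listed at 0 against 506 to 734 in the other libraries, and it was the highest knockout library for 8 of the 10 genes and the lowest for the other 2, Piwil1 and Piwil2. Ddx4, the germ cell RNA helicase, was at 198 ± 16.8 FPKM in control libraries and 187 ± 4.06 in knockout libraries.

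In control libraries the 10 genes spanned levels from 4.34 to 242 FPKM. FPKM are per length, so levels can be set side by side between genes. Mael (242 ± 23.2) and Fkbp6 (230.1 ± 11.2) were highest and their ranges overlapped. Piwil2 (124 ± 15.8) and Mov10l1 (115 ± 3.11) came next and overlapped, followed by Gtsf1 (88.6 ± 12.2) and Asz1 (68.1 ± 5.05), which also overlapped. Henmt1 (20.2 ± 1.38) and Pld6 (18.9 ± 1.91) were not apart from each other, and Piwil4 (11.2 ± 0.962) and Piwil1 (4.34 ± 0.351) lay below all others without overlap. In the order of knockout means Gtsf1 moved from the fifth to the third place and Piwil2 from the third to the sixth.

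**Figure D1:**
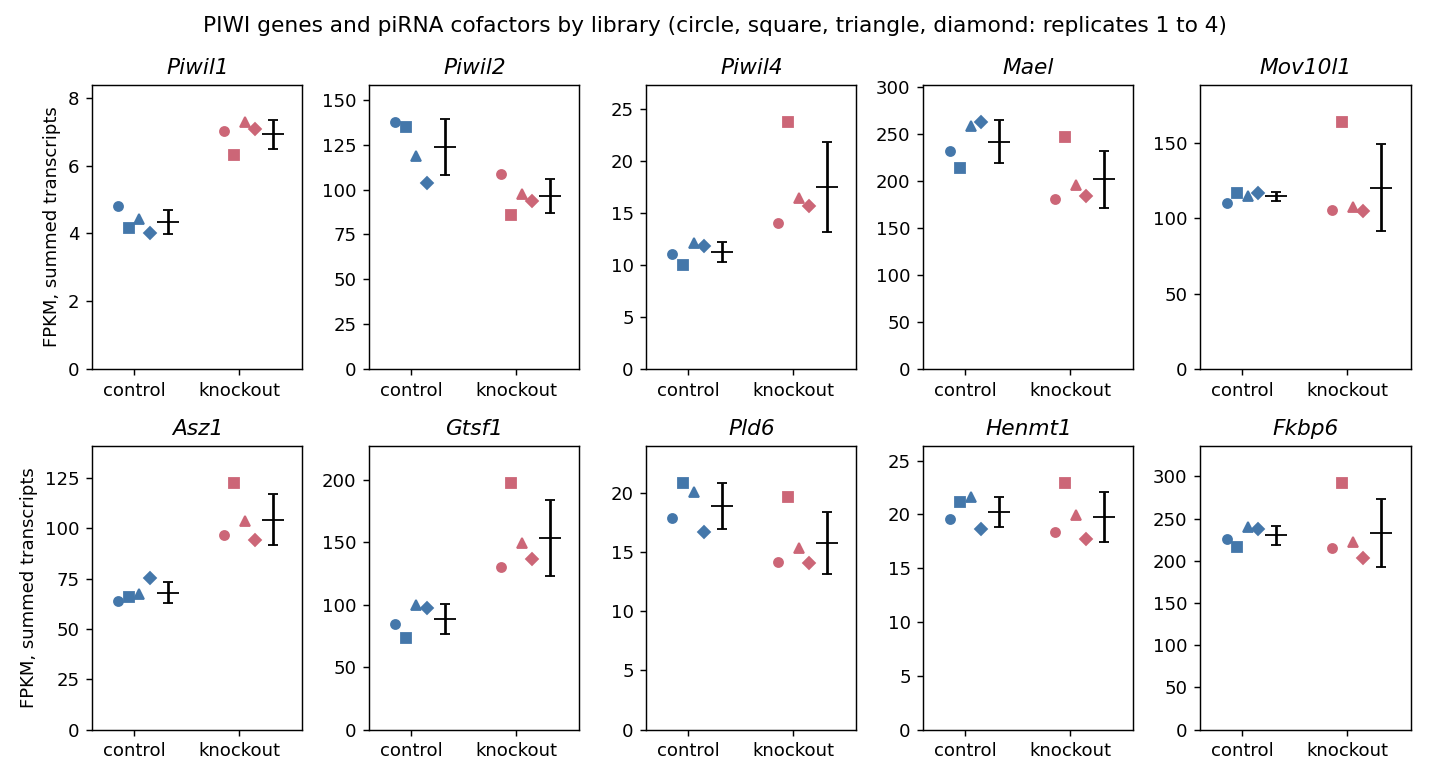
FPKM of each gene, summed over its transcript entries, in the 4 control (blue) and 4 knockout (red) libraries, means as horizontal ticks and SD as vertical bars. Piwil1, Piwil4, Gtsf1 and Asz1 lie higher in every knockout library than in any control, while the Piwil2 groups overlap at 104 in control replicate 4 and 109 in knockout replicate 1.

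In knockout libraries 4 of the 10 genes rose, Gtsf1, Asz1, Piwil1 and Piwil4, to 1.53 to 1.73 times the control mean, and 1 fell, Piwil2. The remaining 5, Mael, Mov10l1, Fkbp6, Henmt1 and Pld6, were not called. A gene was called at an adjusted p under 0.05 by limma on log2(FPKM + 1) with Benjamini-Hochberg adjustment over 13483 genes, of which 37.5% were called, 25.3% as rising and 12.1% as falling. The 5 of 10 called here are to be read against that background, and are not shown to exceed it. The median log2 change was 0.02 over the 10 genes and 0.09 over all genes tested. Groups did not overlap in 4 of the 10 genes, all higher in knockout libraries, while 38.6% of all genes tested did not overlap, 26.1% being higher and 12.5% lower.

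**Figure D2:**
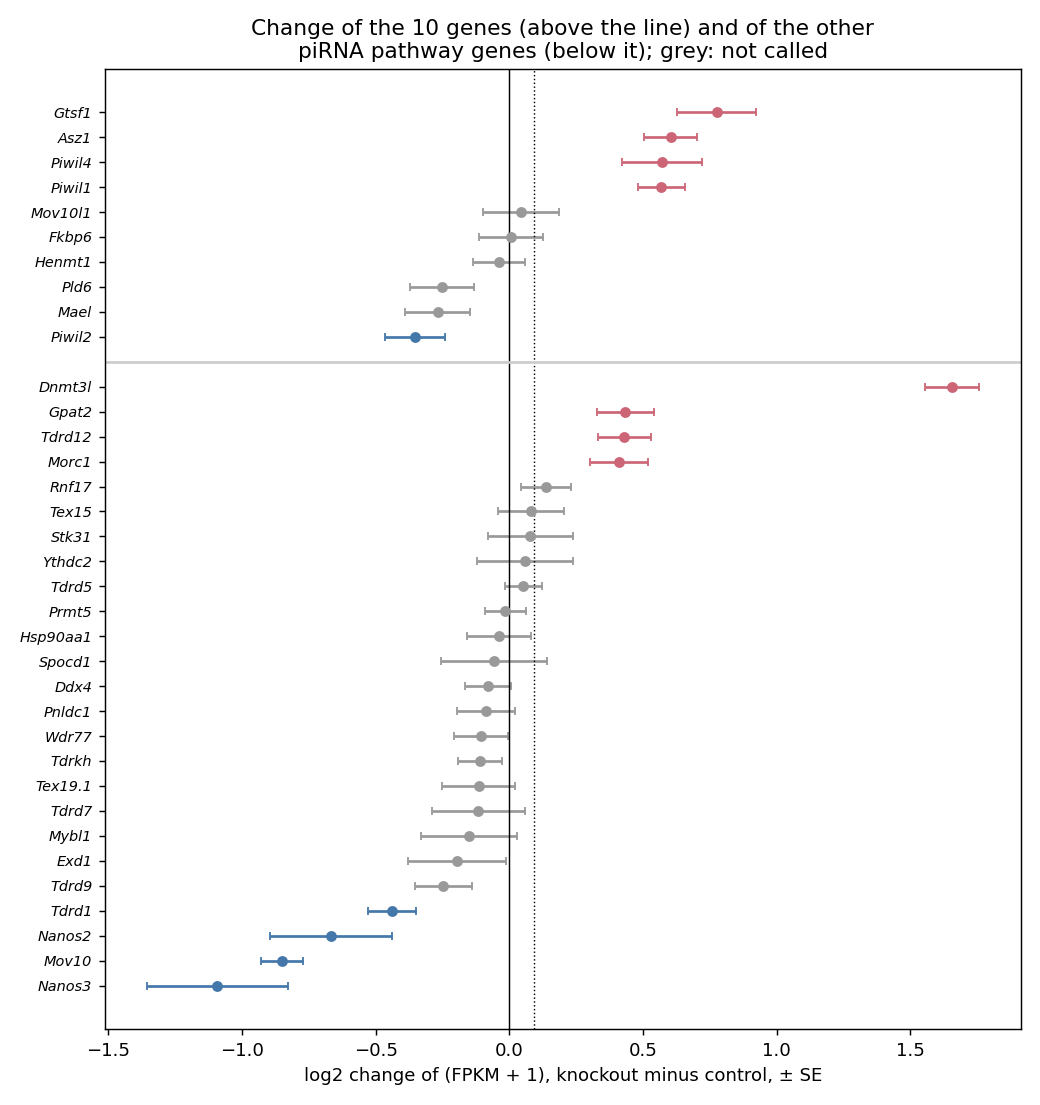
Log2 change of FPKM + 1, knockout minus control, with its SE for the 10 genes above the grey line and 25 other piRNA pathway genes below it (red: rose, blue: fell, grey: not called; dotted line: median of all genes, 0.09). Gtsf1 is highest of the 10 at 0.78 and Piwil2 lowest at -0.35. The sign of Piwil2 turns with equal FPKM totals (0.37), where the median of all genes is 0.74. Dnmt3l and Nanos3 mark the ends of the wider list at 1.66 and -1.09.

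Among the PIWI genes, Piwil1 was low but rose. It maps to chromosome 5, plus strand, 128702524 to 128755474 (GENCODE M21 on GRCm38, the build also called mm10) and had a single transcript entry. Its FPKM across control replicates 1 to 4 was 4.81, 4.14, 4.41 and 4.01, and across knockout replicates 1 to 4 it was 7.01, 6.31, 7.29 and 7.08. Each knockout library was above each control library, and the fold over the control mean was 1.59 (log2 change 0.57, SE 0.09, limma adjusted p = 0.00107). Its control level exceeded that of 28.9% of the genes tested.

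Piwil2, the most abundant of the 3, moved the other way. It maps to chromosome 14, minus strand, 70372477 to 70429383, also with a single transcript entry. FPKM was 138, 135, 119 and 104 in control libraries and 109, 85.8, 97.3 and 93.9 in knockout libraries. Control replicates 1 to 3 were above all knockouts, but control replicate 4 was below knockout replicate 1. The mean fell from 124 ± 15.8 to 96.4 ± 9.50, which was 1.28-fold lower (log2 change -0.35, SE 0.11, limma adjusted p = 0.0348). The call was lost without any one of control replicates 1, 2 or 3 or knockout replicates 2, 3 or 4 (limma adjusted p 0.0508 to 0.0959), and with the FPKM total of every library set equal the sign turned (log2 change 0.37, limma adjusted p = 0.181).

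Piwil4 maps to chromosome 9, minus strand, 14696230 to 14740733. Its summed FPKM was 10.99, 9.95, 12.1 and 11.8 in control libraries and 14.0, 23.7, 16.4 and 15.7 in knockout libraries. All knockouts were above all controls, with knockout replicate 2 well above the rest (1.56-fold, log2 change 0.57, SE 0.15, limma adjusted p = 0.0147, and log2 change 0.42, adjusted p = 0.00551, without that library). The sum joins a pair of transcript entries that behaved differently. The protein-coding entry, Piwil4-203, was at 10.99, 9.95, 10.3 and 9.35 in control libraries and 14.0, 9.29, 11.7 and 12.5 in knockout libraries, and the groups overlapped, with knockout replicate 2 the lowest of all 8 libraries. Fitted alone it was not called (log2 change 0.20, limma adjusted p = 0.239 among the most abundant entries and 0.213 among the protein-coding ones). The entry without an annotated coding sequence, Piwil4-202, was close to 0 in control replicates 1 and 2 and knockout replicate 1, at 1.81 and 2.45 in control replicates 3 and 4, and at 14.4, 4.70 and 3.15 in knockout replicates 2, 3 and 4. It made up 60.8% of the gene's FPKM in knockout replicate 2. How fragments were divided between entries that share exons is an estimate of the authors' software, so the rise of Piwil4 is a rise of the summed entries. The antisense pseudogene Gm15586 within the gene was at 0.213 to 0.354 FPKM in control libraries and 0 to 0.544 in knockout libraries.

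**Figure D3:**
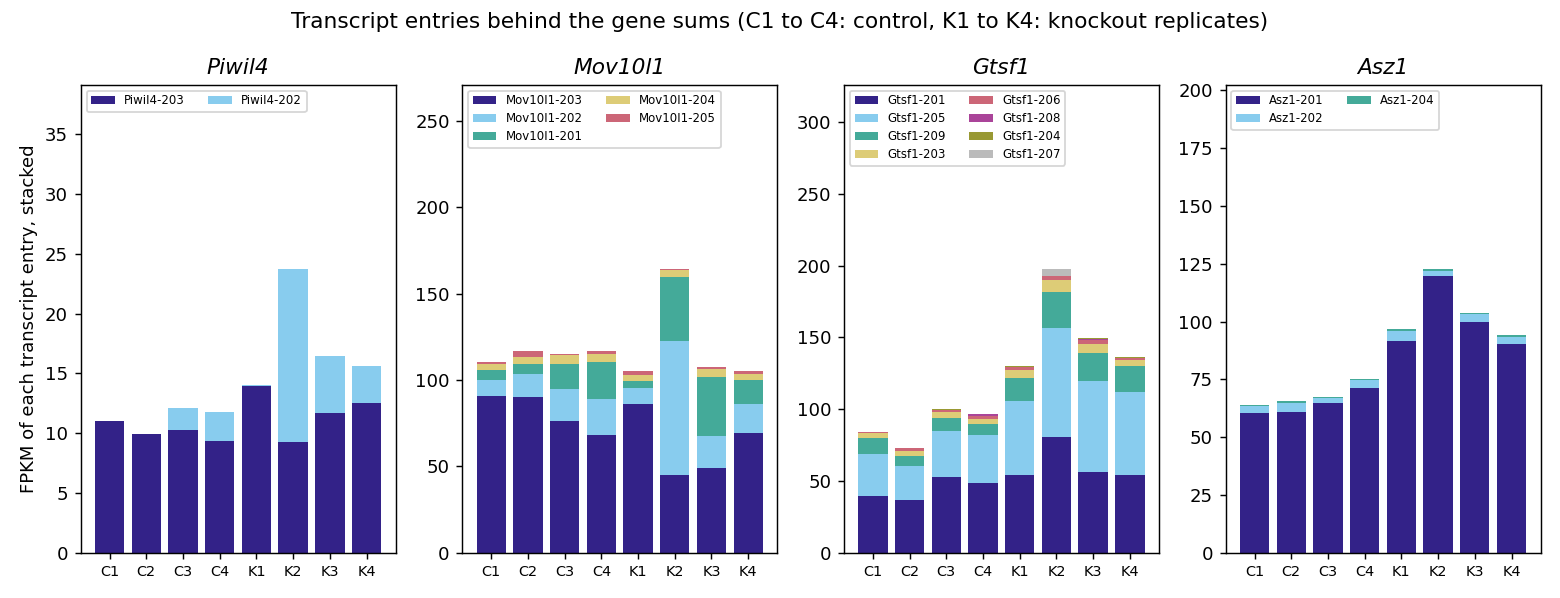
FPKM of each transcript entry, stacked to the gene sum, in control (C1 to C4) and knockout (K1 to K4) libraries for Piwil4, Mov10l1, Gtsf1 and Asz1. Knockout replicate 2 holds 14.4 FPKM of Piwil4-202 and 77.9 of Mov10l1-202, while Asz1 is almost wholly Asz1-201 in every library.

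Ratios between the PIWI genes within a library are not changed by multiplying a library by a scaling factor. The ratio of Piwil1 to Piwil2 was 0.0349, 0.0307, 0.0372 and 0.0387 in control libraries and 0.0645, 0.0736, 0.0749 and 0.0754 in knockout libraries. The ratio of Piwil4 to Piwil2 was 0.0798, 0.0737, 0.102 and 0.114 in control libraries and 0.129, 0.276, 0.169 and 0.167 in knockout libraries. Knockouts lay above controls without overlap in both, by 1.03 and 0.97 on the log2 scale (exact two-sided permutation test over 70 assignments, p = 0.0286 each, the smallest that 4 against 4 libraries can give, and 0.0429 adjusted over 3 ratios). Without any one control library the adjusted p of both was 0.0857. With so few libraries p moves in coarse steps. The differences kept their direction with each single library left out, at 0.96 to 1.08 for Piwil1 and 0.76 to 1.12 for Piwil4. Piwil1 to Piwil4 did not separate the groups (difference 0.06, exact permutation test, adjusted p = 0.83). With the protein-coding entry of Piwil4 in place of the sum, Piwil1 to Piwil4 was higher in knockout libraries (difference 0.46, exact permutation test, adjusted p = 0.0286), and the difference in Piwil4 to Piwil2 was smaller than with the sum, at 0.57 (exact permutation test, adjusted p = 0.0286).

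**Figure D4:**
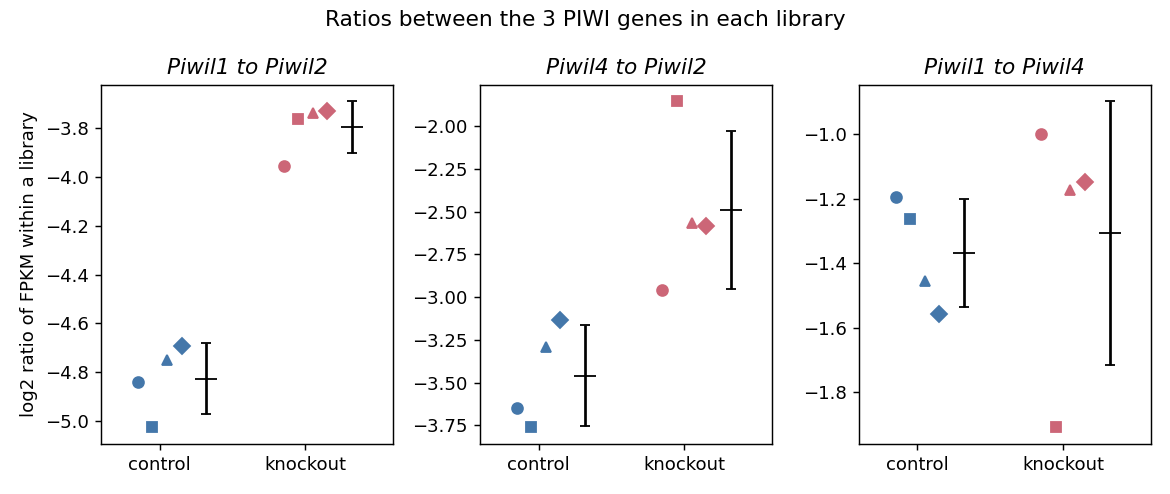
Log2 ratio of FPKM of each pair of PIWI genes within each library, means as horizontal ticks and SD as vertical bars (n = 4; circle, square, triangle and diamond for replicates 1 to 4). Both ratios to Piwil2 are higher in every knockout, and the ratio of Piwil1 to Piwil4 overlaps, with knockout replicate 2 at -1.91.

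Among cofactors, Gtsf1 had the largest change of the 10 genes. GTSF1 is a small zinc finger protein that works with PIWI proteins in transposon silencing and enhances their cutting of target RNA. The gene maps to chromosome 15, minus strand, 103402405 to 103430470. FPKM was 84.4, 73.3, 99.9 and 96.9 in control libraries and 130.3, 197, 149 and 136 in knockout libraries, with no overlap and with knockout replicate 2 highest. The mean rose from 88.6 ± 12.2 to 153 ± 30.4 (1.73-fold, log2 change 0.78, SE 0.15, limma adjusted p = 0.00321). Of its 8 transcript entries, all annotated as protein-coding, Gtsf1-201 and Gtsf1-205 held most of the sum. The share of Gtsf1-201 was 46.7% to 52.7% in control libraries and 37.5% to 41.4% in knockout libraries, and that of Gtsf1-205 was 31.9% to 34.9% and 38.5% to 42.4%. These shares did not overlap between groups, but the difference in shares was not tested. Gtsf1-201 alone went from 44.4 ± 7.49 to 61.2 ± 12.8 FPKM and was not called (log2 change 0.45, limma adjusted p = 0.0572).

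Asz1 encodes a protein of the outer mitochondrial membrane that holds the piRNA processing machinery in place. It maps to chromosome 6, minus strand, 18050964 to 18109061. Its FPKM was 63.9, 65.6, 67.5 and 75.3 in control libraries and 96.8, 123, 104 and 94.1 in knockout libraries. The groups did not overlap, and the mean rose from 68.1 ± 5.05 to 104 ± 12.9 (1.53-fold, log2 change 0.60, SE 0.10, limma adjusted p = 0.00148). The main protein-coding entry, Asz1-201, held 92.6% to 97.5% of the sum in every library and was called by itself (log2 change 0.63, limma adjusted p = 0.00226).

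Pld6, the gene of a mitochondrial endonuclease (Zucchini) that cuts piRNA precursors, was not called. It maps to chromosome 11, minus strand, 59783897 to 59787645, with FPKM of 17.9, 20.8, 20.1 and 16.7 in control libraries and 14.1, 19.6, 15.3 and 14.1 in knockout libraries (log2 change -0.25, SE 0.12, limma adjusted p = 0.129). Knockout replicates 1, 3 and 4 were below all controls and knockout replicate 2 was among them. Without knockout replicate 2 it was called (log2 change -0.35, limma adjusted p = 0.0120). Its protein-coding entry, Pld6-202, held only 26.3% of the gene's FPKM in control libraries, at 4.29, 5.38, 6.14 and 4.09 there and 3.94, 2.73, 3.40 and 3.61 in knockout libraries, with every knockout below every control (log2 change -0.43, limma adjusted p = 0.0317 in the fit of protein-coding entries, where 40.2% of genes were called). The other entry, Pld6-201, is annotated as a processed transcript and overlapped between groups.

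Mov10l1, the helicase that feeds precursor RNA into piRNA processing, was not called. It maps to chromosome 15, plus strand, 88982909 to 89055152. FPKM was 110.2, 117, 115 and 117 in control libraries and 105, 164, 108 and 105 in knockout libraries (log2 change 0.04, SE 0.14, limma adjusted p = 0.835). Knockout replicates 1, 3 and 4 lay just below all controls and knockout replicate 2 far above them. The shorter entry Mov10l1-202 was at 77.9 FPKM in that library against 9.05 to 20.7 in the other 7. Mov10l1-201 was at 36.6 there, close to 33.8 in knockout replicate 3, and at 3.75 to 21.6 in the remaining libraries. The main entry, Mov10l1-203, was at 68.1 to 90.8 in control libraries and at 85.9, 44.9, 49.1 and 69.1 in knockout libraries (log2 change -0.42, limma adjusted p = 0.140).

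Mael, a protein of germ granules needed for transposon silencing and meiosis, was the most abundant of the 10 genes in control libraries and was not called. It maps to chromosome 1, minus strand, 166201201 to 166238747. FPKM was 232, 213, 258 and 263 in control libraries and 180.5, 246, 196 and 184 in knockout libraries. Knockout replicates 1, 3 and 4 were below all controls, while knockout replicate 2 was within the control range (log2 change -0.27, SE 0.12, limma adjusted p = 0.113). Without that library the fall was called (log2 change -0.37, limma adjusted p = 0.00942), as it was with median-ratio scaling (log2 change -0.42, limma adjusted p = 0.00949).

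Fkbp6 and Henmt1 had nearly equal means in both groups. FKBP6 is a co-chaperone that acts with HSP90 in piRNA loading, and its gene (minus strand of chromosome 5, 135291704 to 135350044) was at 225, 217, 240.1 and 238 FPKM in control libraries and 215, 293, 222 and 203 in knockout libraries (log2 change 0.01, SE 0.12, limma adjusted p = 0.972). HENMT1 adds a methyl group to the 3′ end of piRNAs. Its gene (plus strand of chromosome 3, 108939873 to 108960774) was at 19.6, 21.2, 21.6 and 18.6 in control libraries and 18.4, 22.9, 19.9 and 17.7 in knockout libraries (log2 change -0.04, SE 0.10, limma adjusted p = 0.778). In both genes knockout replicate 2 was the highest of all 8 libraries.

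Scaling set how many of the 10 genes fell and left the 4 that rose in place. A single microRNA gene, Mir5105, made up 61.3% to 77.1% of total FPKM in control libraries and 29.4% to 52.7% in knockout libraries. As deposited 4 rose and 1 fell. With median-ratio scaling, under which 38.2% of all genes were called, 4 rose and 3 fell (Piwil2, Mael and Pld6), the median of all genes moving from 0.09 to -0.04. With equal FPKM totals that median was 0.74, and 7 of the 10 rose and 0 fell, the same setting in which 71.9% of all genes were called. Gtsf1, Asz1, Piwil1 and Piwil4 were called as rising under each of the 4 other scalings tried and with each single library left out. Without knockout replicate 2, 43.5% of all genes were called, and 4 of the 10 rose and 2 fell (Mael and Pld6). With the replicate number as a block, 32.6% of all genes were called, and 4 of the 10 rose and 0 fell. For the most abundant entry alone, 34.0% of genes were called, and 2 of the 10 rose and 1 fell.

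**Figure D5:**
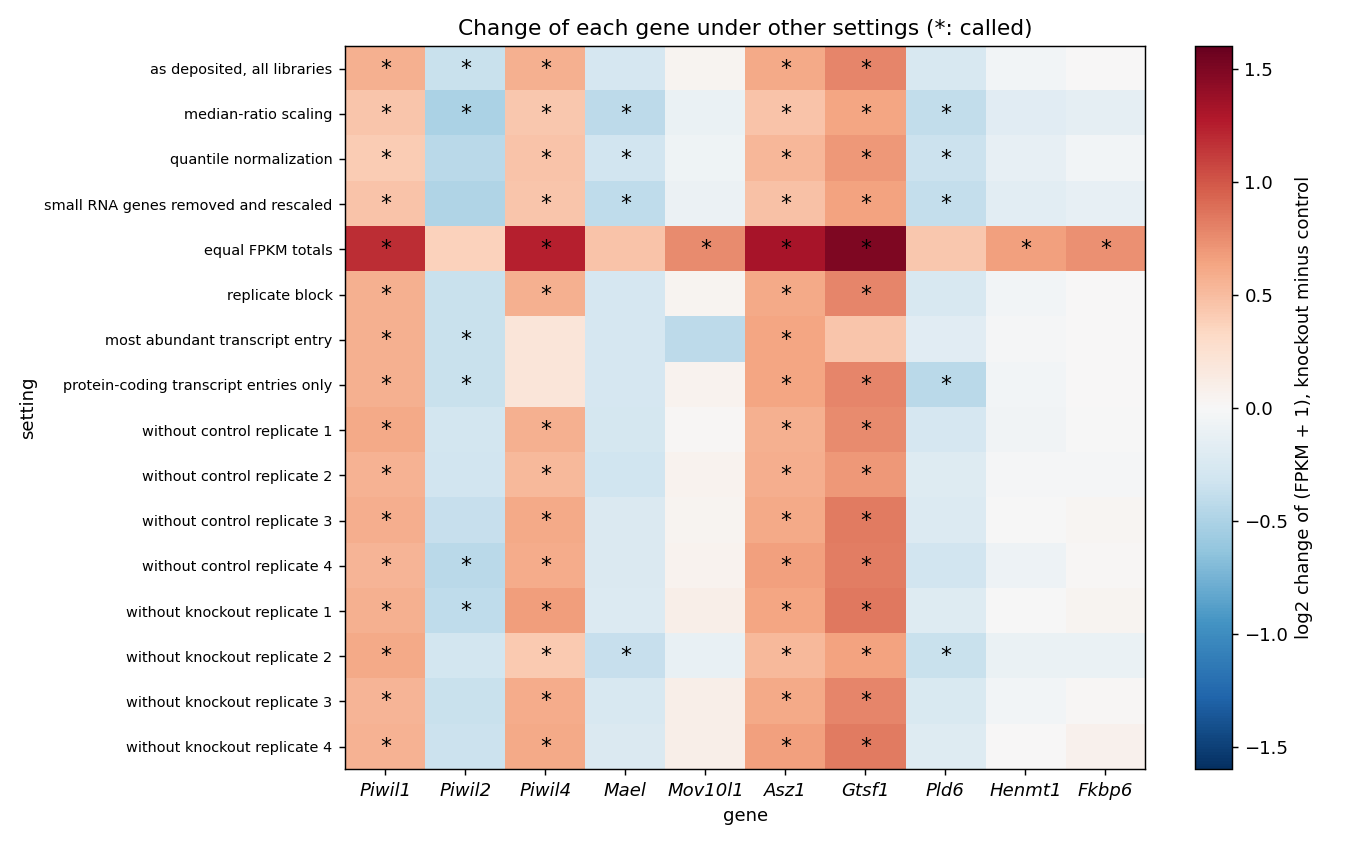
Log2 change of FPKM + 1, knockout minus control, of each gene (columns) under the deposited scaling and other settings (rows), with an asterisk where the gene was called. The columns of Piwil1, Asz1, Gtsf1 and Piwil4 are red throughout, while Piwil2, Mael and Pld6 are blue except with equal FPKM totals. Piwil4 and Gtsf1 lack the call for their most abundant entry, and Piwil4 also lacks it for protein-coding entries.

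The other genes of the pathway also moved in both directions. Of 28 listed, 26 were in the table and 25 were tested: 4 rose, 4 fell and 17 were not called, with a median log2 change of -0.08. The 8 called genes among 25 are to be read against the 37.5% called over all genes. With median-ratio scaling 4 rose and 7 fell, and with equal FPKM totals 18 rose and 0 fell, so that none of the 4 falls named next was called there.

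Those that rose were Dnmt3l, a cofactor of de novo DNA methylation in germ cells, from 1.35 ± 0.129 to 6.43 ± 0.732 FPKM (limma adjusted p = 9.03e-06), Gpat2, a mitochondrial protein of piRNA biogenesis, from 74.2 ± 6.27 to 101 ± 13.7 (limma adjusted p = 0.0114), Tdrd12, a Tudor protein of secondary piRNA production, from 20.4 ± 1.37 to 28.0 ± 3.63 (limma adjusted p = 0.00868), and Morc1, a factor of transposon repression, from 44.1 ± 3.27 to 59.4 ± 8.76 (limma adjusted p = 0.0155, and 0.0552 with the replicate number as a block). Those that fell were Mov10, the broadly expressed relative of Mov10l1, from 67.3 ± 5.14 to 36.8 ± 1.61 (limma adjusted p = 5.25e-05), Tdrd1, a Tudor protein that binds PIWIL2, from 63.6 ± 6.14 to 46.5 ± 3.21 (limma adjusted p = 0.00463), and the RNA-binding proteins Nanos3 and Nanos2. Tdrd1 reversed its sign with equal FPKM totals (log2 change 0.27, against a median of 0.74 over all genes). Its most abundant entry alone was not called (limma adjusted p = 0.0936). Nanos3 went from 18.4 ± 6.13 to 8.02 ± 2.53 (limma adjusted p = 0.0104). Nanos2 went from 6.15 ± 2.40 to 3.33 ± 0.543 (limma adjusted p = 0.0450), but the groups overlapped and leaving out any one of replicates 1, 3 and 4 of either group lost the call (limma adjusted p 0.0591 to 0.115).

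Core pathway genes that were not called included Tdrd5 at 34.0 ± 1.73 and 35.3 ± 1.47 FPKM, Tdrd9 at 37.9 ± 5.01 and 31.7 ± 2.52, Tdrkh at 35.2 ± 3.08 and 32.5 ± 1.80, and Pnldc1, the trimming enzyme, at 42.9 ± 2.70 and 40.6 ± 6.35. Mybl1, the transcription factor (A-MYB) known for driving Piwil1 and piRNA precursors at pachytene, was at 1.81 ± 0.422 and 1.55 ± 0.537 FPKM (log2 change -0.15, limma adjusted p = 0.543), which was not called.

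Most markers of later germ cells moved with the rises. Of 20 genes of meiotic prophase, 17 rose and 0 fell, where 25.3% of all genes rose and 12.1% fell. Their summed FPKM was 761 to 818 in control libraries and 1180.2 to 1563 in knockout libraries, with none at 0 in all libraries. Meiob (0.579 ± 0.228 FPKM in control libraries) and Rad51ap2 (0.316 ± 0.0835), both counted as rising, passed the filter only through their knockout levels. The list was chosen with earlier results of these data known, so the count is a description and not independent support. Of 14 listed genes of pachytene cells and spermatids, 9 were in the table, 4 of them under 1 FPKM in every library. The 3 that could be tested (Ldhc, Hspa2 and Tnp1) rose. The sum of the 9 was 13.1 to 16.4 in control libraries and 26.8 to 37.1 in knockout libraries. Among the untested genes, all low, Ccna1 (0.689 ± 0.0917 and 0.398 ± 0.178 FPKM) and Tssk6 (0.564 ± 0.0793 and 0.479 ± 0.164) had lower knockout means. Pgk2, Spata16, Odf1 and Crisp2 had higher ones. In sorted bulk cells, more cells of a type and more RNA per cell cannot be told apart, and the part of these cells in the rise of Piwil1, Gtsf1, Asz1 and Piwil4 was not tested.

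Most markers of somatic cells were low, and not all were level. The 11 Sertoli genes in the table summed to 83.2 to 126 FPKM in control libraries and 152 to 188 in knockout libraries, with a median log2 change of 0.53 over the 9 tested against 0.09 over all genes. Ctsl was the single one called, from 65.0 ± 10.8 to 116 ± 18.7 FPKM, and was the largest part of the sum in every library. Uncalled Sertoli genes with higher knockout means were Clu (12.3 ± 8.58 and 21.4 ± 7.16), Aard (6.23 ± 3.79 and 9.84 ± 3.17), Amh (2.35 ± 1.41 and 4.63 ± 2.10), Gata4 (2.05 ± 1.24 and 3.40 ± 1.44), Dhh (0.892 ± 0.569 and 1.51 ± 0.761) and Wt1 (2.69 ± 1.16 and 3.18 ± 0.778). Trf (14.6 ± 6.88 and 13.0 ± 4.62) and Cldn11 (1.32 ± 0.989 and 1.22 ± 0.482) had lower knockout means. For Clu, Aard and Amh, control replicate 1 (25.1, 11.9 and 4.21 FPKM) was above the other controls. Knockout replicate 2 (11.7, 5.15 and 2.18) was below the other knockouts. Sox9 stayed at or under 0.975 FPKM. The 5 endothelial genes summed to 4.20 to 5.91 and 11.5 to 12.1. Pecam1 (1.39 ± 0.273 and 4.55 ± 0.635) and Tek (1.05 ± 0.110 and 4.13 ± 0.962) were called. Cdh5 was not called (1.86 ± 0.324 and 2.08 ± 0.254, limma adjusted p = 0.461), and Cldn5 and Kdr stayed near or under 1. Peritubular genes summed to 4.08 to 6.79 and 4.78 to 7.26, and Star and Cd68, the single Leydig and macrophage markers in the table, stayed at or under 2.36. The 2 erythroid genes in the table summed to 0.282 to 0.760 and 1.603 to 2.50. The part of these cells in the results was not tested. Among markers of spermatogonia, 3 of 11 fell (Zbtb16, Sall4 and Nanos3) and 0 rose, where 12.1% of all genes fell and 25.3% rose, with summed FPKM of 1616 to 1730.2 in control libraries and 1468 to 1936 in knockout libraries.

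Genes with profiles most like those of single members were sought by Pearson's r of log2(FPKM + 1) over the 8 libraries, among 9451 genes averaging 5 FPKM or more. For Mael, the highest in control libraries, these were Ypel3 (r = 0.988), Pkm (r = 0.985) and Ctdp1 (r = 0.983). For Gtsf1, the most changed, they were Cenpk (r = 0.997), Tgds (r = 0.997) and Xrcc5 (r = 0.996). The points share library, depth and the division into groups, so these are descriptions of likeness over 8 points.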

How the data were processed

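RNA of GFP-sorted germ cells from 4 control and 4 Kdm1a knockout samples was sequenced from stranded mRNA libraries, per the labels' protocols. The authors deposited FPKM for 45550 transcript entries, and TopHat, Bowtie, Cufflinks and Cuffdiff with mm10 are named per the submitters' processing notes. Versions, annotation and strand use were not given in the sources used here. These values are estimates scaled to library size, so shared exons and abundant small RNAs can shift them. Entries were summed by gene identifier to 17589 genes, with positions and transcript types from GENCODE M21.

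Genes averaging 1 FPKM or more were tested on log2(FPKM + 1), pseudocount 1, by limma 3.58.1 in R 4.3.3 with an intensity trend and group alone in the model, two-sided, with calls at p under 0.05 after Benjamini-Hochberg adjustment. Fits were tested on simulated data. Log2 changes understate low genes, and folds are ratios of mean FPKM. Ratios of PIWI genes used exact permutation tests. Depth was scanned so that FPKM of genes with 1 transcript longer than 600 bases gave whole fragments. At the best fit 62.0% to 66.8% of values under 20 fragments lay within 0.1 of a whole number. At a single fixed setting chance gives 20%, which understates chance for the best of a scan, so the depths are estimates. The members and lists were chosen with earlier results of these data known. Named genes were the 10 members, genes of the pathway list, label checks, and the 3 genes most like the highest and the most changed member. Alternatives covered pseudocount, filter, scaling, limma settings, replicate block, transcript choice and each library left out. The fit of protein-coding entries was added after seeing the data. A change was counted as reversed where its sign differed and either fit was called.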

Additional observations from a re-analysis of the deposited data

Results flagged for a closer look

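In 78 groups of 4 libraries, 8 held a library far from the other 3 by Dixon's criterion, which chance gives in about 1 of 20 groups. Knockout replicate 2 was the one apart in 6 of them. It was at 164 FPKM for Mov10l1, 80.1 for Wdr77, 132 for Stk31, 39.1 for Tdrd7, 121.5 for Gpat2 and 50.1 for Pnldc1, higher than the other knockouts in all but Wdr77. Knockout replicate 1 was apart at 51.3 FPKM for Tdrd1 and at -3.96 for the log2 ratio of Piwil1 to Piwil2. Without knockout replicate 2, Tdrd7 (log2 change -0.31, limma adjusted p = 0.00524, from 0.633) and Pnldc1 (log2 change -0.19, limma adjusted p = 0.0452, from 0.558) became called as falls. Gpat2 stayed called as a rise (log2 change 0.34, limma adjusted p = 0.00613). Mov10l1 (log2 change -0.11, limma adjusted p = 0.127), Stk31 (log2 change -0.09, limma adjusted p = 0.432) and Wdr77 (log2 change -0.02, limma adjusted p = 0.844) stayed uncalled.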

How the results depend on the processing

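Asz1 and Piwil1 kept direction and call in all 21 alternatives (log2 change 0.46 to 1.32 and 0.40 to 1.19). With equal FPKM totals, Piwil2 was at 0.37, Henmt1 at 0.65, Mov10l1 at 0.76 and Fkbp6 at 0.73 on the log2 scale, the last 3 called as rises, and in the wider list Ddx4 was at 0.64, Tdrd1 0.27, Tdrd7 0.58, Tdrkh 0.59, Pnldc1 0.62, Spocd1 0.59, Prmt5 0.70, Wdr77 0.61, Hsp90aa1 0.69 and Tex19.1 0.61, each reversed. There 9549 genes rose and 151 fell over all genes, 7 and 0 among the 10 genes, and 18 and 0 in the wider list. With median-ratio scaling, 2766 genes fell, 3 of the 10 and 7 of the wider list, Mael being at -0.42 and Pld6 at -0.39. With quantile normalization 2648 fell and 2 of the 10, with Piwil2 uncalled at -0.43, Mael called at -0.31 and Pld6 at -0.35. With small RNA genes removed, 2241 rose and 2 of the 10 fell, with Piwil2 uncalled at -0.49, Mael called at -0.40 and Pld6 at -0.38. With a mean of at least 5 FPKM, which tests fewer genes, 2164 rose.

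For the most abundant entry of each gene, 2 of the 10 rose, Piwil4 being uncalled at 0.20 and Gtsf1 at 0.45, 2 of the wider list fell, and the log2 ratio of Piwil1 to Piwil4 passed the threshold at 0.46. For protein-coding entries Piwil4 was uncalled at 0.20, Pld6 called at -0.43, and 2 of the 10 fell. With the replicate number as a block, Piwil2 lost its call at -0.35, so 0 of the 10 fell, Morc1 (0.41, limma adjusted p = 0.0552) and Nanos2 (-0.67, limma adjusted p = 0.0582) also lost theirs, leaving 3 rises and 3 falls in the wider list, and over all genes 2983 rose and 1408 fell. Deviations from group means correlated at 0.22, -0.12, -0.13 and -0.09 in same-numbered libraries, within the -0.33 to 0.25 of differently numbered ones. With 4 libraries in each group, such correlations cannot decide whether the numbers pair the samples. Leaving out each library gave 0 to 2 falls among the 10, Piwil2 at -0.43 to -0.30, Mael at -0.37 to -0.22, Pld6 at -0.35 to -0.20, and log2 ratios to Piwil2 of 0.96 to 1.08 for Piwil1 and 0.76 to 1.12 for Piwil4 (exact permutation test, adjusted p 0.0429 to 0.0857). The cause of these changes was not tested.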
